A study of Ovis aries with 4 samples.

Results

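The RAB genes encode small GTPases that mark the membranes of the secretory and endocytic pathways, and 52 of them were measured in sheep conceptuses on day 14 of pregnancy. The members were chosen by name, as the features of the deposited table whose symbol is RAB followed by a number and, in most cases, a letter, which gave 52 of 25197 features. The conceptus comprises the embryo proper and the membranes that will form the placenta. At this stage in sheep it is a lengthening thread, most of whose cells are trophectoderm, the outer epithelium that faces the uterus. The study sequenced ribosome-depleted total RNA of 4 conceptuses, each recovered from a different pregnant ewe of Columbia and Rambouillet cross, and names no treatment, genotype or second group. All 4 libraries therefore form 1 group, called conceptuses 1 to 4 here, and the results are levels and their spread between animals. The unit is RPKM, reads adjusted for the length of the transcript and the size of the library. Levels of different genes can be set side by side as far as the transcript lengths used were right. A wrong length would shift a gene alike in all 4 libraries, which the SD between conceptuses cannot show.

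A RAB protein cycles between a GDP-bound form held in the cytosol and a GTP-bound form on a membrane, where it recruits tethers, motors and sorting proteins. Exchange factors load GTP, GTPase-activating proteins end the signal, prenyl groups anchor the protein, and GDP dissociation inhibitors return it to the cytosol. Trophectoderm secretes proteins towards the uterus and takes up uterine secretions, which draws on both the outward and the inward routes. The roles given below were worked out mainly in human, mouse, dog and yeast cells and are background, not results of these libraries.

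The labelled tissue was checked against epithelial and lineage markers. Of 11 measured trophectoderm markers, 9 averaged 5 RPKM or more, and KRT8, CLDN6, EPCAM and CDH1 led them. The summed level of 5 leukocyte markers was 1.23 to 2.19 RPKM in a library and that of 4 blood and endothelium markers 1.65 to 5.68 RPKM. PECAM1 and the globin genes HBA and HBB, also listed for blood and endothelium, were not measured under those symbols. The second sum therefore says little about blood. Of 9 extraembryonic endoderm markers, APOA1, DAB2, LRP2 and RBP4 averaged 5 RPKM or more, while GATA6, FOXA2, SOX17, AFP and TTR averaged 0.133 to 1.11 RPKM, and the summed level of the 9 was 610 to 896 RPKM. The 4 epiblast markers summed to 191 to 226 RPKM, nearly all of it LIN28A, with POU5F1 at 2.08 RPKM in the mean, and the 5 mesoderm markers to 9.25 to 14.5 RPKM, mostly VIM. In bulk tissue fewer cells of a type and less RNA per cell cannot be told apart. Of 3 measured endometrium markers, PGR was listed at 0 in all 4 libraries while FXYD4 and LGALS15 were abundant, and the summed level of the 3 was 221 to 426 RPKM. The sum of all RPKM in a library ranged from 454387 to 522308. Read totals are unknown, and ratios of values in features seen in only 2 libraries put conceptuses 2, 3 and 4 at roughly 0.735, 1.00 and 0.664 of the depth of conceptus 1.

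RAB genes were broadly present, and their levels spanned from the top of the table to 0. Of the 52 genes, 40 reached 1 RPKM in the mean and 30 reached 5 RPKM, the second count being 57.7% of the family. Among all features with a symbol, 52.9% reached 1 RPKM and 35.2% reached 5 RPKM, and among all features 38.1% and 25.3% did. The median RAB gene stood at 7.97 RPKM, against 1.43 RPKM for the median feature with a symbol. At the other end 12 genes had a mean under 1 RPKM, 6 were listed at 0 in at least 1 library, and RAB38 was listed at 0 in all 4. Other small GTPase families, picked for comparison after the table had been seen, gave medians of 4.64 RPKM for 23 ARF and ARL genes and 21.9 RPKM for 13 RAS, RAL and RAP genes. These shares and medians are descriptions, and no test was made of the family as a list.

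**Figure D1:**
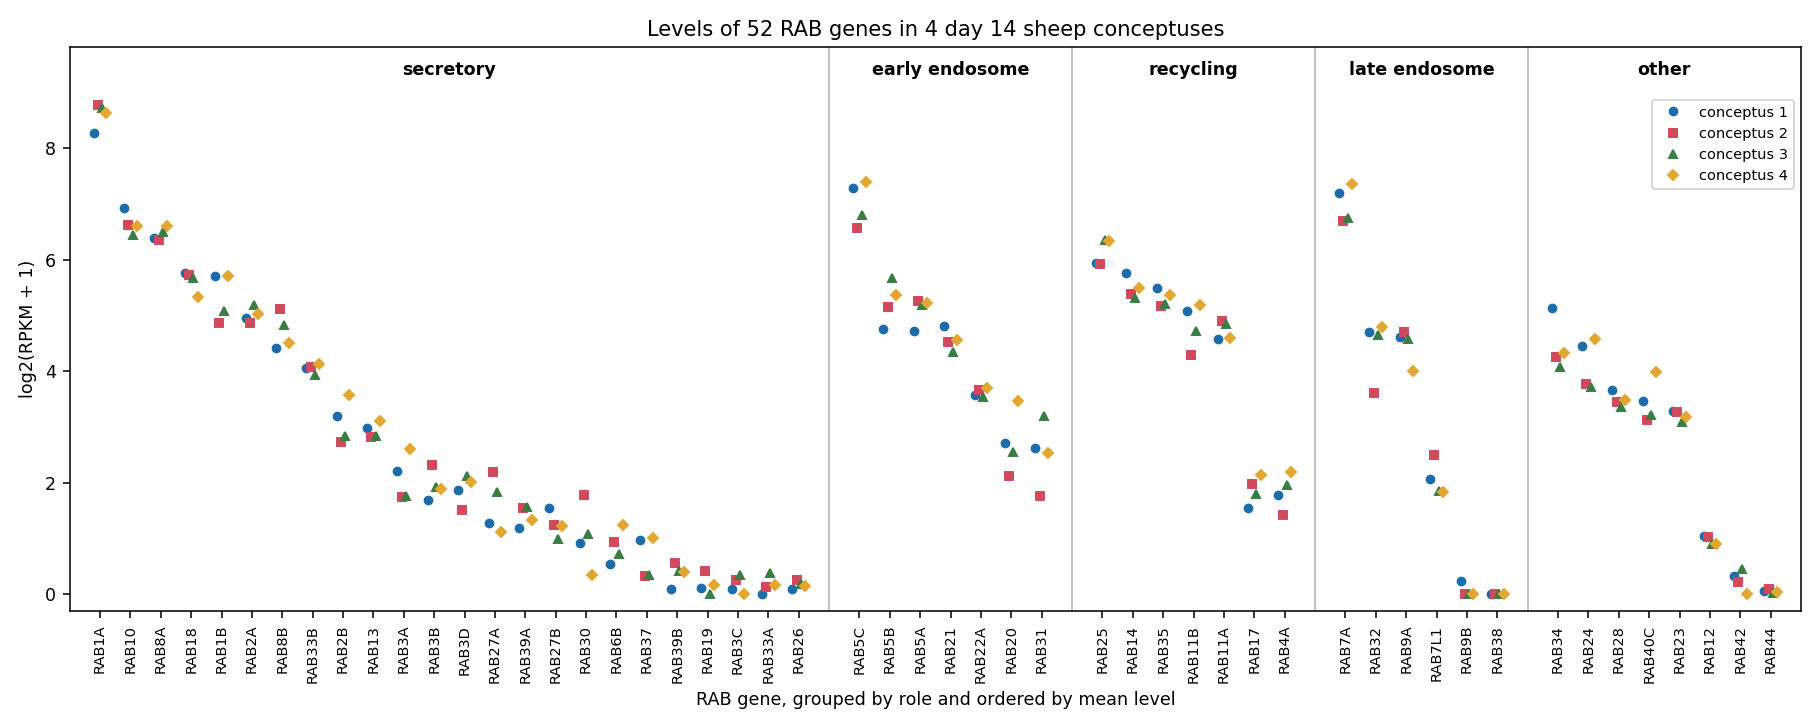
Level of each of the 52 RAB genes in each of the 4 conceptuses, as log2(RPKM + 1), with genes grouped by role and ordered by mean. A value of 0 on the axis is a gene listed at 0. RAB1A stands above all others, with 308 to 438 RPKM, every role except the mixed group has at least 1 gene with a mean above 50 RPKM, and the secretory group has the longest tail of genes near 0.

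A small number of genes carried most of the summed RAB level. RAB1A alone held 26.5 ± 4.55% of it (SD, n = 4), and RAB1A, RAB5C and RAB7A together held 44.1 ± 1.91%. With RAB10, RAB8A and RAB25 added, 6 genes held 61.5 ± 1.51%, between 59.3% and 62.7% in a single library. By role, secretory genes held 52.4 ± 4.27% of the sum, early endosome genes 16.7 ± 1.59%, recycling genes 14.4 ± 0.661%, late endosome genes 11.9 ± 1.62% and the remaining genes 4.65 ± 0.931%. Each gene was counted in 1 role, although several, such as RAB10 and RAB8A, act on more than 1 compartment. The shares, and the group medians below, depend on that placement, which the SD does not cover. RAB genes without a feature under their symbol, among them RAB6A, RAB4B and RAB15, are missing from the sum and from the shares. The secretory share was 57.6% in conceptus 2 and 54.1% in conceptus 3, and 48.5% and 49.3% in conceptuses 1 and 4. The late endosome share lay the other way, at 13.4% and 13.1% in conceptuses 1 and 4 and at 10.2% and 10.8% in conceptuses 2 and 3. RAB1A, counted in the secretory share, held 21.0%, 31.3%, 28.9% and 24.8% in conceptuses 1 to 4. The shares of a library sum to 100%, so a higher share of 1 gene or role lowers the others. In RPKM, the secretory genes summed to 711, 804, 780.5 and 783, and the late endosome genes to 197, 142, 156 and 208. The summed level of all 52 genes was similar in the libraries, at 1467, 1397, 1443 and 1588 RPKM in conceptuses 1 to 4, or 0.294% to 0.307% of all RPKM.

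**Figure D2:**
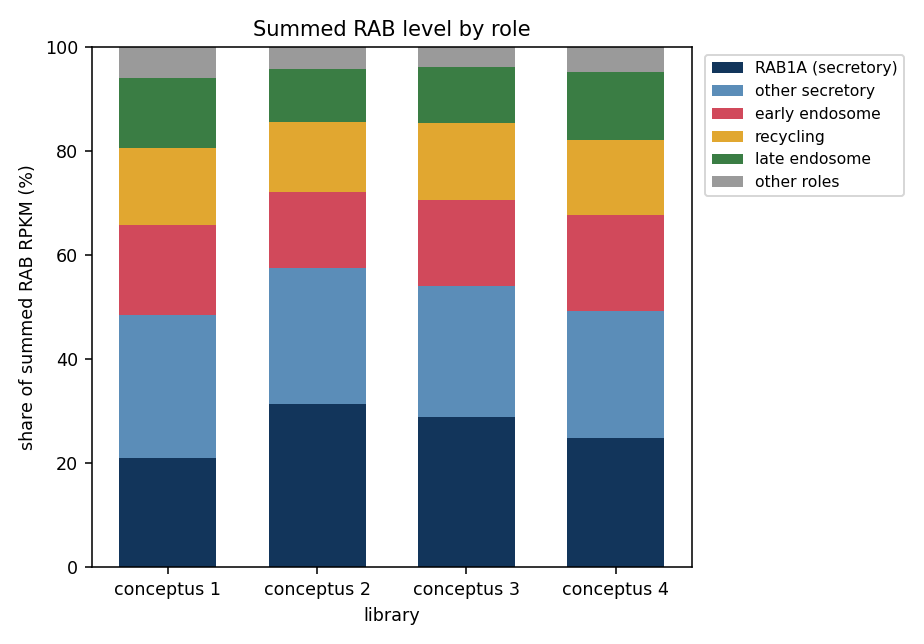
Share of the summed RAB RPKM held by RAB1A, by the other secretory genes and by each other role, in percent, as 1 stacked bar for each conceptus. Secretory genes held between 48.5% and 57.6% of the sum, and RAB1A between 21.0% and 31.3%.

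The secretory group, with 24 genes, held a few abundant members and many low ones. Of the 24, 10 averaged 5 RPKM or more and 7 under 1 RPKM, and the group median was 2.84 RPKM. Among all features with a symbol, 35.2% reached 5 RPKM and 52.9% reached 1 RPKM, so many low genes are not particular to this group. RAB1A, which acts in transport of vesicles out of the endoplasmic reticulum to the Golgi, was at 308, 438, 417 and 394 RPKM in conceptuses 1 to 4 (389 ± 57.0 RPKM, SD, n = 4). Conceptus 1 was the lowest, and even there RAB1A exceeded every other RAB gene in every library. Its relative RAB1B, with the same known role, was at 51.2, 28.2, 33.0 and 51.1 RPKM, so RAB1A was 6.01 to 15.5 times as high within a library.

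RAB10 and RAB8A, which direct carriers from the Golgi and recycling endosomes to the plasma membrane, followed RAB1A in this group. RAB10 was at 120, 96.9, 85.5 and 96.2 RPKM and RAB8A at 82.8, 80.6, 89.1 and 95.8 RPKM in conceptuses 1 to 4. RAB8A varied little, with a highest library 1.19 times the lowest. RAB10 was the higher of this pair in 3 of 4 conceptuses, and their ranges overlapped. RAB8B, the close relative of RAB8A, was at 20.3, 33.6, 27.3 and 21.8 RPKM, below RAB8A in each library. RAB13, a relative of RAB10 and RAB8A that is known at tight junctions, stood at only 6.86, 6.06, 6.14 and 7.58 RPKM.

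RAB18, which is found on the endoplasmic reticulum and on lipid droplets, was at 53.0, 52.1, 49.7 and 39.1 RPKM in conceptuses 1 to 4. Conceptus 4 was the lowest and the other libraries lay close together. RAB2A, which serves traffic between the Golgi and the endoplasmic reticulum, was at 30.1, 27.9, 35.4 and 31.3 RPKM. Its relative RAB2B was at 8.14, 5.65, 6.19 and 10.9 RPKM, and the ranges of the pair did not overlap. RAB33B, a Golgi RAB that also takes part in autophagy, was among the steadiest members at 15.5, 15.8, 14.3 and 16.6 RPKM. RAB33A, its relative, was listed at 0 in conceptus 1 and at 0.1, 0.3 and 0.12 RPKM in the others.

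The RAB genes of regulated exocytosis, known from neurons, endocrine cells, glands and blood cells, lay below the median RAB gene, although RAB3A, RAB3B, RAB3D and RAB27A averaged more than the median feature with a symbol. RAB3A was at 3.61, 2.37, 2.41 and 5.06 RPKM, RAB3B at 2.24, 4.02, 2.79 and 2.7 RPKM, and RAB3D at 2.68, 1.86, 3.35 and 3.06 RPKM in conceptuses 1 to 4. No one of these RAB3 genes was the highest throughout: RAB3A led in conceptuses 1 and 4, RAB3B in conceptus 2 and RAB3D in conceptus 3. RAB27A, which docks secretory granules and exosome-forming endosomes at the plasma membrane, was at 1.43, 3.58, 2.59 and 1.16 RPKM. RAB27B was at 1.91, 1.38, 0.98 and 1.33 RPKM, so the order of this pair also changed between libraries. RAB3C, RAB26 and RAB37, other genes linked to secretory granules, had means of 0.133, 0.128 and 0.628 RPKM.

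The remaining genes placed in the secretory group, some of which may act elsewhere, were low, each with a mean under 2 RPKM. RAB39A was at 1.27, 1.94, 1.95 and 1.53 RPKM and RAB39B at 0.07, 0.48, 0.34 and 0.32 RPKM. RAB30, a Golgi RAB, had a mean of 1.19 RPKM with 0.27 to 2.44 RPKM in single libraries. RAB6B and RAB19 had means of 0.858 and 0.138 RPKM. RAB6A, the broadly expressed relative of RAB6B, had no feature under that symbol and could not be analysed.

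Each of the 7 early endosome genes averaged over 5 RPKM, a level reached by 35.2% of all features with a symbol. The group median was 22.7 RPKM. RAB5 proteins drive fusion of incoming vesicles with early endosomes, and the RAB5C gene was by far the highest of its family at 154, 93.7, 111 and 167 RPKM in conceptuses 1 to 4 (131 ± 34.8 RPKM, SD, n = 4). RAB5B was at 25.9, 34.3, 49.8 and 40.0 RPKM and RAB5A at 25.4, 37.0, 35.6 and 36.4 RPKM. RAB5C exceeded both in every library, holding 56.4% to 75.1% of the summed level of the RAB5 genes, while RAB5B and RAB5A overlapped. Both RAB5A and RAB5B were lowest in conceptus 1, a library in which RAB5C was high.

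RAB21, which acts in the uptake of integrins, was at 26.9, 22.0, 19.3 and 22.7 RPKM. RAB22A, a regulator of early and recycling endosomes, was at 10.9, 11.7, 10.5 and 11.99 RPKM, and its highest library was 1.14 times its lowest, the smallest range among the 30 RAB genes averaging 5 RPKM or more. RAB31, its close relative, was at 5.18, 2.41, 8.13 and 4.82 RPKM and thus 3.37 times as high in conceptus 3 as in conceptus 2. RAB20, known from macrophage phagosomes and early endosomes, was at 5.58, 3.34, 4.83 and 10.1 RPKM, with conceptus 4 apart from the rest. RAB20 and RAB31 were the only RAB genes averaging 5 RPKM or more that were under 5 RPKM in any library, so 28 of the 30 are in the authors' table of features at 5 RPKM or more in all 4 libraries.

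Recycling endosome genes were led by RAB25, a relative of RAB11 that is largely restricted to epithelia and returns cargo to the apical membrane. RAB25 was at 59.9, 59.9, 80.8 and 80.0 RPKM in conceptuses 1 to 4 (70.2 ± 11.8 RPKM, SD, n = 4), with no overlap with RAB11A or RAB11B. RAB11A and RAB11B, which act at recycling endosomes in most cells, stood at about the same mean, 25.7 ± 3.06 and 28.02 ± 7.61 RPKM. RAB11A was at 22.9, 28.9, 27.7 and 23.2 RPKM and RAB11B at 33.0, 18.5, 25.5 and 35.2 RPKM, so RAB11B was the higher in conceptuses 1 and 4 and RAB11A in conceptuses 2 and 3. RAB25 held 51.7% to 60.3% of the summed level of these 3 genes in each library.

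RAB14, which links the Golgi with endosomes, was at 53.0, 40.7, 38.7 and 43.7 RPKM, and RAB35, which serves fast recycling from endosomes and cytokinesis, at 44.1, 34.9, 35.7 and 40.4 RPKM. Both were highest in conceptus 1 and their ranges overlapped. RAB4A, a fast recycling RAB of the early endosome, was low at 2.46, 1.68, 2.88 and 3.58 RPKM. RAB17, described in mouse and dog epithelial cells as a RAB of polarised transport, was also low at 1.94, 2.95, 2.5 and 3.43 RPKM. RAB4B and RAB15 had no feature under those symbols and could not be analysed.

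Late endosome genes were dominated by RAB7A, which governs maturation of late endosomes and their fusion with lysosomes. RAB7A was at 145, 102, 106 and 163 RPKM in conceptuses 1 to 4 (129 ± 30.1 RPKM, SD, n = 4), close to RAB5C in every library. RAB9A, which returns mannose 6-phosphate receptors from late endosomes to the Golgi, was at 23.4, 25.0, 23.0 and 15.1 RPKM. RAB7A was 4.08 to 10.8 times as high as RAB9A within a library, and RAB9B, the relative of RAB9A, was at 0.18 RPKM in conceptus 1 and listed at 0 in the others.

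RAB32, known in pigment cells and macrophages for lysosome-related organelles and also found at mitochondria, was at 25.0, 11.2, 24.1 and 26.5 RPKM. Conceptus 2 stood below the other libraries. RAB38, its close relative in pigment cells, was listed at 0 in all 4 conceptuses. RAB7L1, an older name of RAB29, a trans-Golgi and lysosome RAB, was at 3.17, 4.63, 2.6 and 2.59 RPKM.

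The 8 genes outside these roles ranged from 0.04 to 21.7 RPKM in mean. RAB34, which acts in the positioning of lysosomes near the Golgi and in the building of primary cilia, was at 33.8, 18.1, 15.8 and 19.1 RPKM, with conceptus 1 the highest. RAB24, linked to autophagy, was at 20.9, 12.7, 12.1 and 22.8 RPKM. RAB28, a RAB of cilia, was at 11.7, 9.96, 9.25 and 10.2 RPKM, and RAB40C, part of ubiquitin ligases, at 9.98, 7.68, 8.28 and 14.8 RPKM. RAB23, an inhibitor of Hedgehog signalling in the mouse, varied by 1.17 times between its lowest and highest library around a mean of 8.22 RPKM. RAB12, RAB42 and RAB44 had means of 0.968, 0.2 and 0.04 RPKM.

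**Figure D3:**
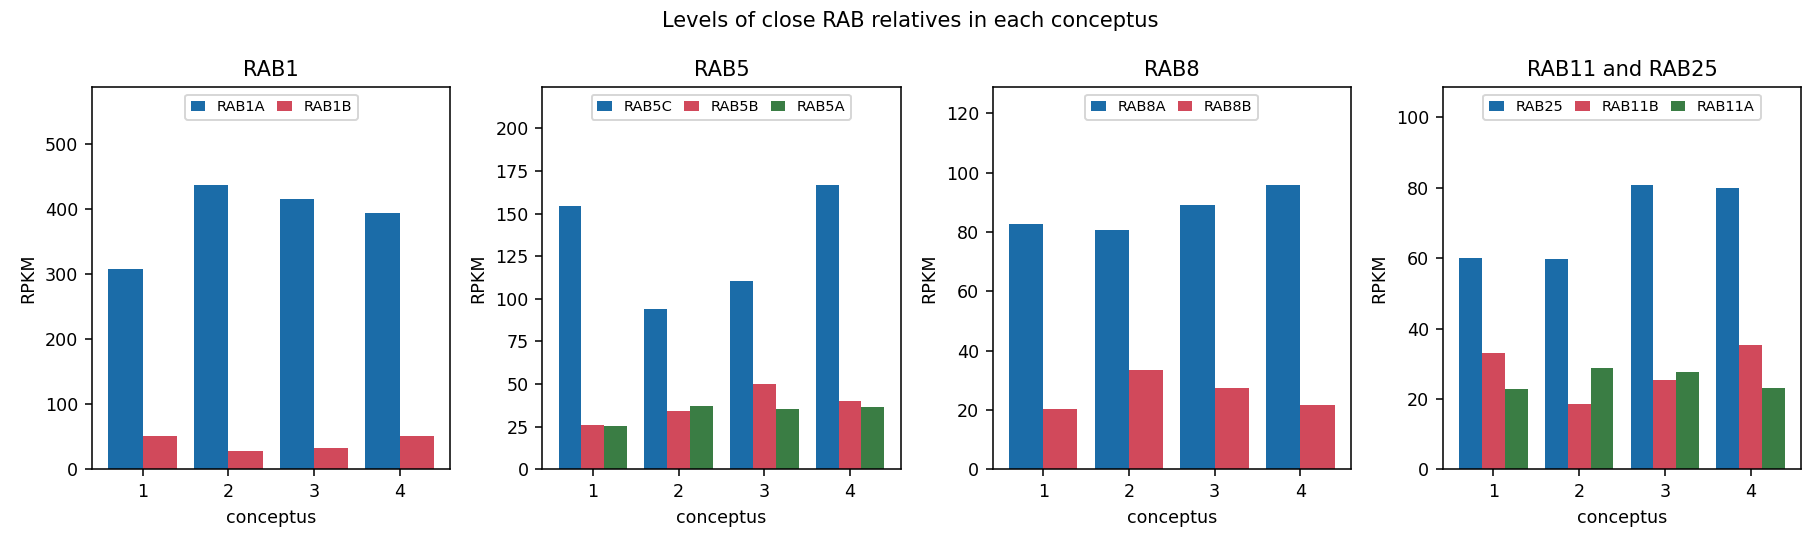
RPKM of close RAB relatives in conceptuses 1 to 4, as 1 bar per gene and library, for RAB1, RAB5, RAB8 and the group of RAB11 and RAB25. RAB1A, RAB5C, RAB8A and RAB25 are the highest bar of their panel in every conceptus, while RAB11A and RAB11B change order.

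Related genes were set against each other within each conceptus in 16 of 22 listed pairs, on the log2(RPKM + 1) scale. In 10 pairs the same gene was higher in 4 of 4 conceptuses. RAB10 exceeded RAB13 by 3.71 ± 0.20 (SD, n = 4), RAB1A exceeded RAB1B by 3.26 ± 0.62, and RAB7A exceeded RAB9A by 2.52 ± 0.61. RAB2A exceeded RAB2B by 1.92 ± 0.39, RAB5C exceeded RAB5A by 1.91 ± 0.56 and RAB5B by 1.78 ± 0.63, and RAB8A exceeded RAB8B by 1.74 ± 0.38. RAB25 exceeded RAB11A by 1.41 ± 0.30, RAB22A exceeded RAB31 by 1.09 ± 0.64, and RAB39A exceeded RAB39B by 1.04 ± 0.09. The size of this last difference depends on the pseudocount, since both genes were low: it was 1.45 with a pseudocount of 0.5 and 2.25 with 0.1, and RAB39A was 4.04 to 18.1 times as high as RAB39B in RPKM. The order of the other 6 pairs was mixed. RAB11A over RAB11B gave −0.09 ± 0.57, RAB5A over RAB5B −0.13 ± 0.25, RAB10 over RAB8A 0.18 ± 0.27, RAB27A over RAB27B 0.36 ± 0.63, RAB3D over RAB3A −0.20 ± 0.39 and RAB3D over RAB3B −0.07 ± 0.49.

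For each of the 10 pairs with 1 direction, p was 0.125 by a two-sided exact permutation of the signs over conceptuses, the smallest p that 4 animals can give, and 0.2 after Benjamini-Hochberg adjustment over the 16 pairs. None could pass 0.05 by this test. The 6 mixed pairs had exact p values from 0.375 to 1 by the same test, which does not show that those genes were equal. The sources used here do not say how reads that match more than 1 gene were counted, so the split between close relatives is uncertain to that extent. In 3 more pairs a gene was listed at 0 in some library. A further 3 pairs, with RAB6A, RAB4B or RAB40B, could not be analysed because those genes had no feature under their symbol.

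**Figure D4:**
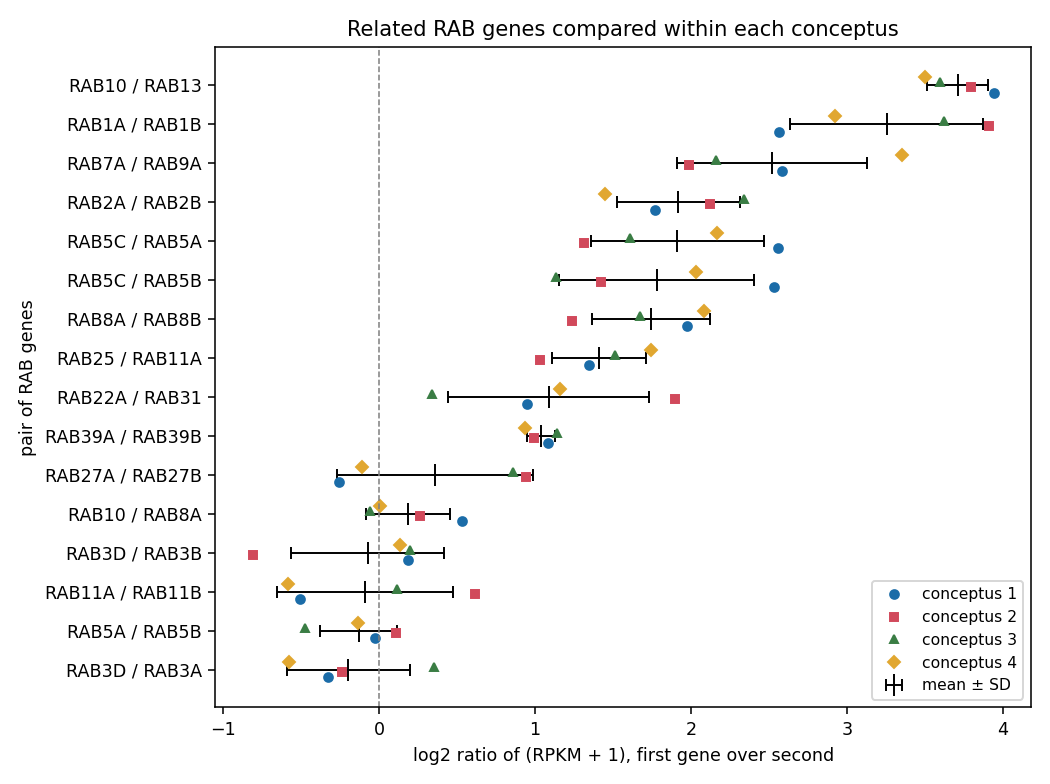
Log2 ratio of (RPKM + 1), first gene over second, for 16 pairs of related RAB genes. Coloured points are the 4 conceptuses and black bars the mean ± SD, and 10 pairs lie wholly to the right of 0 while 6 straddle it.

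In the order of levels, neighbouring RAB genes mostly overlapped. RAB1A lay clear of RAB5C, with 308 RPKM as its lowest value and 167 RPKM as the highest of RAB5C. RAB5C, RAB7A, RAB10, RAB8A and RAB25 followed, each overlapping the next. Within a conceptus, RAB7A exceeded RAB10 and RAB8A exceeded RAB25 in 4 of 4 libraries. RAB5C exceeded RAB7A, and RAB10 exceeded RAB8A, in 3 of 4. RAB25, with a lowest value of 59.9 RPKM, lay clear of RAB18, whose highest value was 53.0 RPKM. From RAB18 down to RAB33B each gene overlapped its neighbour in the order, so the order of neighbours there is not settled by these 4 libraries, while genes further apart, such as RAB18 and RAB33B, did not overlap.

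The abundant RAB genes mostly varied by less than 2 times between conceptuses. Among the 30 averaging 5 RPKM or more, the median coefficient of variation was 16.6%, against 20.5% for all 6374 features at that level. A range of over 2 times between the lowest and the highest library was seen for RAB20, RAB31, RAB32 and RAB34, 4 of the 30 or 13.3%, against 21.9% of the 6374 features. RAB20 and RAB32 shared an order of the libraries, with conceptus 4 highest, then conceptuses 1, 3 and 2. RAB31 was highest in conceptus 3 and also lowest in conceptus 2, while RAB34 was highest in conceptus 1 and lowest in conceptus 3. By limma's variance test over 9602 features, 0 of 40 RAB genes tested had an adjusted p under 0.05, and 0 had an unadjusted p under 0.05, while the 12 other RAB genes lay under its minimum level. Over all features the test called 0%, or 11, 4 and 7 features without conceptus 1, 3 or 4, with 0 RAB genes among them. With all 4 conceptuses, 4.85% of the features had an unadjusted p under 0.05. The smallest values among RAB genes were those of RAB32, with an unadjusted p of 0.09 and an adjusted p of 0.984 by limma, and RAB31, with 0.0917 and 0.984. The test sets each feature against a trend fitted to these same libraries, and on simulated data it called only very large shifts of a single library. The widest range among RAB genes averaging 5 RPKM or more, 3.37 times, was far below those shifts. The lack of adjusted calls was therefore to be expected and does not show that the conceptuses were alike.

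Many members shared an order of the libraries that was also common in the table as a whole. In 15 of the 30 genes averaging 5 RPKM or more, conceptuses 1 and 4 were the 2 highest libraries, among them RAB5C, RAB7A, RAB1B, RAB11B, RAB24, RAB2B, RAB40C and RAB20. That is 50% of these genes, against 37.7% of all features at that level, the most frequent of the 6 possible combinations there too. RAB1A, RAB8B and RAB11A instead had conceptuses 2 and 3 as their 2 highest libraries, a combination seen in 17.7% of all features. After scaling by median-of-ratios size factors, conceptuses 1 and 4 were the highest in 9 of the 30 genes, and in 10 after rescaling to one column sum, against 26.1% and 27% of all features, so the share of RAB genes was near that of the table. The summed RPKM of the whole library was also highest in these conceptuses, at 499127 and 522308, against 454387 and 471482 in conceptuses 2 and 3. Libraries were pooled 3 to a chip, per the labels' protocols, without a record here of which ones went together, so chip and conceptus cannot be told apart in this pattern.

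Shares within families of close relatives were computed for 9 families, and values are given for 3, chosen after they had been seen. In 7 of the 9, these 3 included, a gene held a higher share in both conceptuses 1 and 4 than in conceptuses 2 and 3. The RAB9 and RAB39 families had no such gene. How often unrelated genes would show this was not computed. RAB5C held 75.1% and 68.6% of the RAB5 sum in conceptuses 1 and 4, and 56.8% and 56.4% in conceptuses 2 and 3. RAB11B held 28.5% and 25.4% of the sum of RAB11A, RAB11B and RAB25 in conceptuses 1 and 4, and 17.2% and 19.0% in conceptuses 2 and 3. RAB1B held 14.3% and 11.5% of the RAB1 sum, and 6.05% and 7.33%, in the same order of libraries. The libraries of conceptuses 1 and 4 were also the most alike of all pairs across the whole table, with a Pearson r of 0.990 over features on the log2(RPKM + 1) scale, against 0.982 to 0.987 for the other pairs, and features are not independent replicates.

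Genes that control and serve RAB proteins were measured alongside them. Of 168 listed genes, 151 were in the table, 124 reached 1 RPKM in the mean and 81 reached 5 RPKM, with a median of 5.995 RPKM. Among all features with a symbol, 52.9% reached 1 RPKM and 35.2% reached 5 RPKM. These shares are the background for the counts of each list below, and no test was made of the lists. The 10 measured genes of prenylation and membrane cycling all reached 1 RPKM and had the highest list median, 19.7 RPKM. GDI2, a GDP dissociation inhibitor that extracts RAB proteins from membranes, was at 122, 167, 141 and 112 RPKM in conceptuses 1 to 4. RABGGTB, the catalytic subunit of the transferase that prenylates RAB proteins, was at 62.6, 73.9, 35.0 and 44.2 RPKM, and RABAC1, a membrane protein that accepts prenylated RAB proteins, at 54.9, 17.9, 23.6 and 53.0 RPKM. RABAC1 thus had conceptuses 1 and 4 well above the others, and GDI2 had conceptus 2 as its highest.

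Exchange factors and GTPase-activating proteins were lower, with medians of 4.45 and 4.55 RPKM. Among 33 measured exchange factors 14 reached 5 RPKM, and the highest were TRAPPC1, TRAPPC4 and TRAPPC3 at 24.0 ± 2.91, 22.9 ± 3.04 and 20.9 ± 2.88 RPKM (SD, n = 4), subunits of the TRAPP complex that activates RAB1. Among 32 measured GTPase-activating proteins 15 reached 5 RPKM, led by TBC1D9B at 37.1 ± 6.61, TBC1D20 at 25.8 ± 4.59 and TBC1D13 at 19.1 ± 6.08 RPKM. TBC1D20 is known to act on RAB1 and TBC1D13 on RAB35.

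Effectors were present for each route. Of 30 secretory effectors 16 reached 5 RPKM, led by the Golgi stacking protein gene GORASP2 at 96.3 ± 5.53 RPKM, the tether gene USO1, whose protein binds RAB1, at 53.2 ± 6.56 RPKM, and the exocyst subunit gene EXOC7 at 18.4 ± 2.10 RPKM (SD, n = 4). Of 16 early endosome effectors 10 reached 5 RPKM, and APPL1, VPS45 and ANKFY1 were highest at 17.5 ± 2.62, 11 ± 0.874 and 8.998 ± 1.47 RPKM. Of 13 recycling effectors 7 reached 5 RPKM, led by EHD1, a membrane-shaping ATPase of recycling endosomes, at 82.6 ± 11.3 RPKM. RAB11FIP4 and RAB11FIP1, whose proteins bind RAB11, followed at 43.6 ± 9.06 and 14.8 ± 1.75 RPKM. Of 18 late endosome effectors 12 reached 5 RPKM, with PLIN3, which binds RAB9 and coats lipid droplets, at 168 ± 67.1 RPKM, the retromer subunit gene VPS29 at 78.1 ± 3.45 RPKM and RABEPK, an effector of RAB9, at 76.0 ± 6.56 RPKM. PLIN3 was at 198, 104, 121 and 248 RPKM in conceptuses 1 to 4, the same order of libraries as in RAB7A, while RAB9A was lowest in conceptus 4. Conceptuses 1 and 4 were also the 2 highest libraries in 37.7% of all features averaging 5 RPKM or more. By limma's variance test 0 of the 124 regulators and effectors tested had an adjusted p under 0.05. On simulated data the test called only very large shifts, so this does not show that their levels were alike. An unadjusted p under 0.05 was seen for 2 of the 124, RABAC1 and MICALL2, against 4.85% of all features tested.

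**Figure D5:**
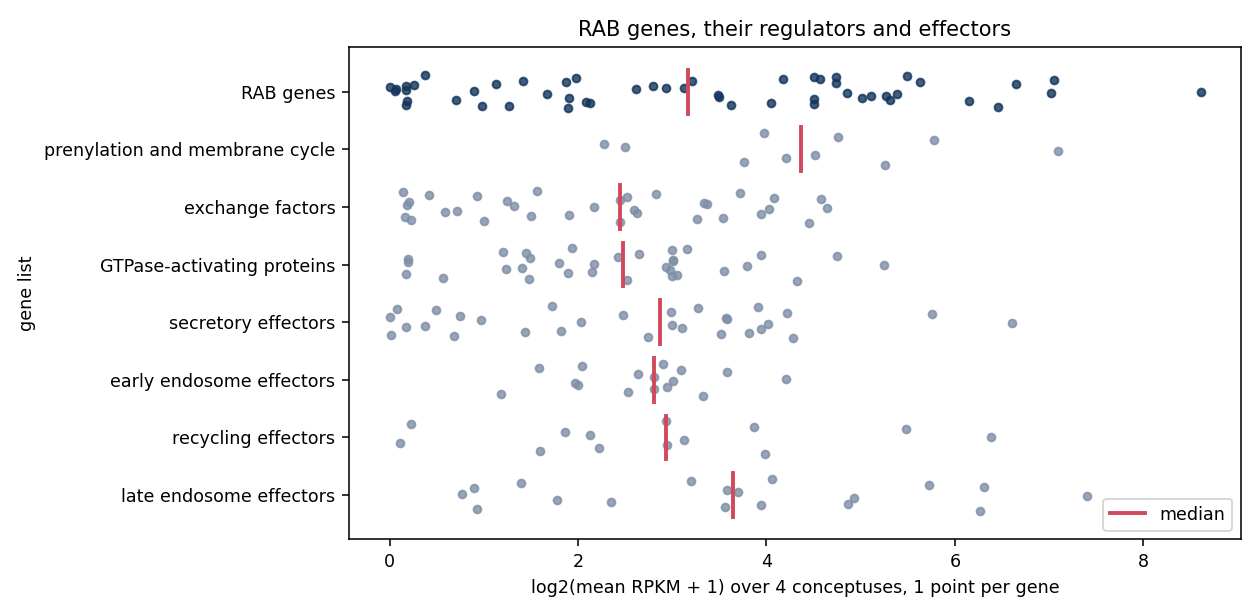
Mean level over the 4 conceptuses of the 52 RAB genes and of each measured regulator or effector, as log2(mean RPKM + 1), with 1 point per gene and a red line at the median of each list. The prenylation and membrane cycle list has the highest median, 19.7 RPKM, and the exchange factors the lowest, 4.45 RPKM.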

How the data were processed

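Ribosome-depleted total RNA of 4 conceptuses was sequenced strand-specifically on an Ion Proton, with bases called by Torrent Suite 4.0.2, per the labels' protocols. RPKM values were computed and deposited by the authors, and the unit is named in the workbook only for the smaller of its tables, whose values are the same as in the larger. Per the submitters' processing notes, reads were placed on build Oar_v3.1. Aligner, annotation release, counting tool and use of strand: not given in the sources used here. Depth is unknown without read counts, and counting error cannot be stated. Each conceptus came from a separate ewe, and libraries were pooled 3 to a chip, per the labels' protocols.

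From the table of 25197 features, genes were matched by symbol. RefSeq's list for assembly ARS-UI_Ramb_v3.0, used for names only, holds 50 of the 52 RAB symbols. The members, roles, pairs and lists were chosen with earlier results of these data known. Per-library values are given for the 4 highest genes of each role, both genes of each pair and genes averaging 5 RPKM or more with a range over 2 times; of each regulator list the 3 highest are named, and other genes were named after their values were seen. The variance test (limma 3.58.1, R 4.3.3) took log2 values of RPKM with a pseudocount of 1 for features averaging 1 RPKM or more. Each feature's residual variance over the robust trended prior was referred to the upper tail of an F distribution, and p values were adjusted by Benjamini-Hochberg over all features, at 0.05. It was tested on simulated data, where it called very large shifts of a single library and missed smaller ones. Pairs used the exact sign-flip permutation test. Alternatives were pseudocounts of 0.1 and 0.5, other filters and priors, other scalings of the libraries and leaving out each conceptus. Python 3.11.15, numpy 2.4.6, pandas 2.3.3 and scipy 1.17.1 were used.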

Additional observations from a re-analysis of the deposited data

Results flagged for a closer look

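Levels, sums and ratios of the RAB genes and of the leading regulators were screened for a conceptus far from the rest, judged by its distance to the nearest library as a share of the range. Of 100 quantities screened 4 were marked. Chance marks about 1 in 20, or 5, if the quantities are independent and normally distributed. These share genes and include values at 0, so that rate is only a rough guide. The level of RAB5A was 25.4 RPKM in conceptus 1, while conceptuses 2 to 4 lay between 35.6 and 37.0 RPKM. RAB32 stood at 11.15 RPKM in conceptus 2, and the other libraries lay between 24.1 and 26.5 RPKM. RAB9B was at 0.18 RPKM in conceptus 1 and listed at 0 in the others, a form that the rule always marks. The log2 ratio of RAB3D over RAB3B was −0.81 in conceptus 2, against 0.13 to 0.20 in the others.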

How the results depend on the processing

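Counts of RAB genes at 1 and 5 RPKM stayed within 1.5 times of 40 and 30 in each alternative tried, at 38 to 41 and 28 to 30. The median RAB level was 7.47 to 8.34 RPKM without 1 conceptus, and 19.4 RPKM over the members with a mean of at least 1 RPKM only, which leaves out the low genes. Over all features, limma's variance test called 0 features in the main setting, 4 after rescaling to one column sum and 0 to 11 without 1 conceptus (11 without conceptus 1, 4 without conceptus 3, 7 without conceptus 4); the cause was not tested. In the same settings it called 0 RAB genes, which says little, since on simulated data it called only very large shifts. RAB20, RAB30, RAB31 and RAB32 had an unadjusted p under 0.05 without conceptus 1, as did 550 of all 9559 features tested, and RAB31 without conceptus 4, as did 521 of 9567. For the pairs, RAB11A over RAB11B was 0.0504 without conceptus 1 and 0.0759 without conceptus 4, between −0.32 and 0.0759 over the omissions, and RAB3D over RAB3B was 0.172 without conceptus 2, between −0.16 and 0.17; the cause was not tested. The other 14 tested pairs kept their direction with each pseudocount and without each conceptus. The count of genes highest in conceptuses 1 and 4 under other scalings was chosen after seeing the data. No paired contrast between groups of samples was possible because the labels give 1 group. Without read totals, low values such as those of RAB19 or RAB44 have unknown counting error.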
